A study of Mus musculus with 12 samples.

Results

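The respiratory chain and the ATP synthase were followed here through 41 genes, of which 13 are encoded by the mitochondrial genome and 28 by nuclear chromosomes, out of 35675 genes to which the libraries were summed. The members were taken by name from a list of subunits of complexes I to V. Complex I had 7 mitochondrial and 11 nuclear members, complex II 4 nuclear ones, complex III 1 and 5, complex IV 3 and 6, and complex V 2 and 2. Ndufa4, which carries a complex I symbol, was counted with complex IV, to which its protein is now assigned. All 41 genes passed the filter on low counts, through which 13456 genes were tested.

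RNA came from red fluorescent cells of large forward scatter that were sorted from the spinal cords of P10 mice and are labelled as enriched in oligodendrocytes, the myelin-forming glia of the central nervous system. RalAB cKO mice were RalAflox/flox and RalBflox/flox, RalA cKO mice were RalAflox/flox alone, and control mice carried no floxed Ral allele. There were 4 mice per group with 1 library each. Every group, control included, also carried the CnpCre allele, which puts Cre recombinase under the Cnp gene of myelinating glia, and Rosa26-StopFlox-TdTomato, a red fluorescent reporter that Cre switches on. RalA and RalB are closely related small GTPases of membrane traffic. Deletion in the sorted cells is taken from the labels, and floxed tissue outside the red gate was not sampled.

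Complex I oxidises NADH and complex II oxidises succinate, and both pass electrons to ubiquinone. Complex III hands them to cytochrome c and complex IV to oxygen, and complex V makes ATP from the resulting proton gradient. The mitochondrial genome encodes core subunits of every complex except complex II. Its genes are transcribed as long precursors that are cut into shorter RNAs and given poly(A) tails. Oligodendrocytes are known to rely on mitochondrial ATP while they differentiate and build myelin.

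The sequences of 4 neighbouring mitochondrial genes are shown because 3 of them, mt-Nd3, mt-Atp8 and mt-Co3, had the largest called differences of the whole set. A further reason is that overlaps bear on how reads are counted. The 4 genes lie head to tail on the same strand of chrM in GRCm38, with mt-Atp8 at chrM:7766-7969, mt-Atp6 at chrM:7927-8607, mt-Co3 at chrM:8607-9390 and mt-Nd3 at chrM:9459-9806. The sequences are GENCODE vM21 transcripts, printed 5′ to 3′. In the first pair, all of mt-Atp8 and the first 90 bases of mt-Atp6, capitals mark the 43 bases that both transcripts contain. In the second pair, the last 60 bases of mt-Co3 (chrM:9331-9390) and of mt-Nd3 (chrM:9747-9806), capitals mark the stop codon or what the genome holds of it.
mt-Atp8: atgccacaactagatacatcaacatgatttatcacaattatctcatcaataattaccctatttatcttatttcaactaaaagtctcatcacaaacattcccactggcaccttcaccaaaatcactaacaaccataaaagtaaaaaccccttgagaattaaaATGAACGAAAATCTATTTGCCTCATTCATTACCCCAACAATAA
mt-Atp6: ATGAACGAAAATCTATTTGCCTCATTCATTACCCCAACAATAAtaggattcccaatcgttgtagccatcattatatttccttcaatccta
mt-Co3: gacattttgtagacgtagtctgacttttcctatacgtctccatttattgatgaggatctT
mt-Nd3: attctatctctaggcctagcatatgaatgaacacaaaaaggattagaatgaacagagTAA

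A read inside the shared 43 bases can belong to either mt-Atp8 or mt-Atp6, so the division of estimated counts between these 2 genes is uncertain. The values and calls of these 2 genes are thus not independent of each other. mt-Atp8, 204 bases long, had a deposited effective length of 55.8 bases in every library, and its values rest on few possible read positions. Shorter overlaps joined mt-Atp6 to mt-Co3 (1 base), mt-Nd4l to mt-Nd4 (7 bases) and mt-Nd5 to mt-Nd6 (14 bases, on opposite strands). mt-Co3, mt-Nd4 and mt-Cytb ended in a lone T, which the poly(A) tail completes to a stop codon, and the other 10 members ended in a complete stop codon. Members of both kinds were found among those that passed the test described next and among those that did not.

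The libraries held 10.9 to 15.4 M estimated counts. Summed over 11 markers of oligodendrocytes, the share of counts was 10.5% to 11.8% in RalAB cKO, 11% to 11.9% in RalA cKO, and 10.4% to 12.2% in control. Of the 11, 5 were lower and 1 was higher in RalAB cKO than in control by edgeR at an adjusted p of 0.05. In RalA cKO 1 was higher and 0 were lower. Summed over 15 microglial markers, none of them at 0, it was 0.125% to 0.202% in RalAB cKO, 0.0169% to 0.0295% in RalA cKO, and 0.0265% to 0.0638% in control, and 14 of the 15 were higher in RalAB cKO and 3 lower in RalA cKO than in control by edgeR at an adjusted p of 0.05. Astrocyte markers reached at most 0.101% and neuronal markers at most 0.0162%, both highest in the library control 3. By the same test 5 of 8 astrocyte, 3 of 8 neuronal and 3 of 7 oligodendrocyte precursor markers were lower in RalAB cKO than in control, and 0 were higher. In RalA cKO 0 of these were called. All 8 neuronal markers were still below 0 there, with a median log2 difference of -0.99 and 4 at an unadjusted p of 0.05 by edgeR. All 7 endothelial markers were too, with a median of -0.98 and 5 at that level, and all 15 microglial ones, with -0.70 and 13, beside 22.8% of all genes. Of 8 astrocyte markers 5 were below 0, with 0 at that level, and 9 of 11 oligodendrocyte markers were above 0. Over all genes 9.39% were called higher and 9.02% lower in RalAB cKO, and 1.71% and 1.07% in RalA cKO. Rala had 42.9, 32.2, 39.8 and 36.1 CPM in the RalAB cKO mice, 33.1, 42.4, 42.7 and 41.8 CPM in the RalA cKO mice, and 35.5, 59.3, 47 and 56.3 CPM in the control mice, a log2 difference of -0.31 ± 0.15 at an adjusted p of 0.236 in RalA cKO and -0.39 ± 0.15 at an adjusted p of 0.0832 in RalAB cKO against control, and Ralb, with 14, 17.2, 15.9 and 16 CPM in the RalAB cKO mice, 17.5, 17.4, 13.4 and 13.4 CPM in the RalA cKO mice, and 18.9, 15.1, 23.3 and 19.5 CPM in the control mice, differed from control by -0.28 ± 0.15 at an adjusted p of 0.216 in RalAB cKO and by -0.32 ± 0.15 at an adjusted p of 0.229 in RalA cKO, whose Ralb is not floxed, and by 0.03 ± 0.15 at an adjusted p of 0.936 in RalAB cKO against RalA cKO. Counts were summed over whole genes and do not show a loss of floxed exons alone. Neither targeted gene passed the test by total counts. These counts thus do not show the deletion, and the genotypes are taken from the labels. Summed Y-linked expression, not balanced between groups, was 0.482, 0.315, 46.8 and 48.2 CPM in the RalAB cKO mice, 52.5, 8.10, 109 and 59.2 CPM in the RalA cKO mice, and 40.9, 14.1, 0.767 and 0.275 CPM in the control mice.

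In RalA cKO, 7 of the 13 mitochondrially encoded members rose and 0 fell against control, where 1.71% of all tested genes were called higher and 1.07% lower. The called genes were mt-Nd3, mt-Nd1, mt-Nd2 and mt-Nd4 of complex I, mt-Co3 of complex IV, and mt-Atp8 and mt-Atp6 of complex V. All 13 had a log2 fold change above 0, with a median of 0.64 and a range of 0.26 to 1.18, beside a median of -0.02 over all genes tested. The 3 comparisons were edgeR quasi-likelihood tests over all genes with Benjamini-Hochberg adjustment, and a fold change is given on the log2 scale ± standard error (n = 4 mice per group). CPM are counts per 1 M library counts after TMM scaling. In bulk RNA of sorted cells, fewer cells of a type and less RNA per cell cannot be told apart.

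**Figure D1:**
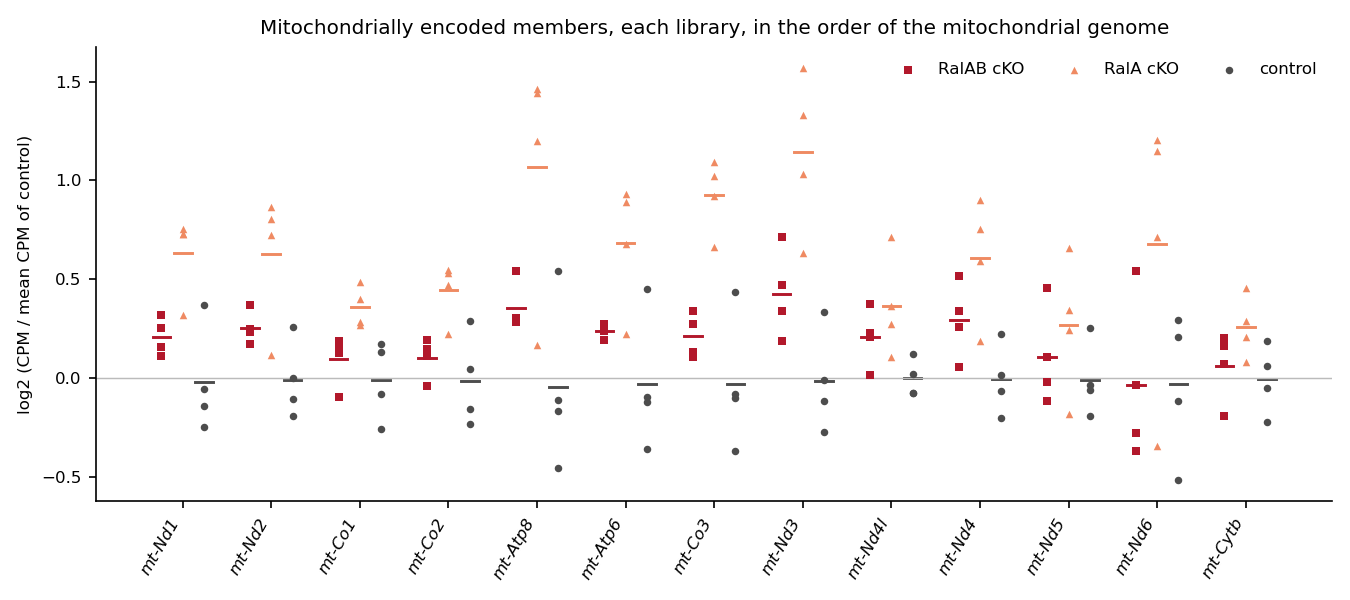
Each point is 1 library, plotted for the 13 mitochondrially encoded members in genome order as log2 of its CPM over the mean CPM of control, and bars are group means. The RalA cKO means lie above the control mean for all 13 members, farthest for mt-Nd3 and mt-Atp8, and the RalAB cKO points stay within 1 log2 unit of the control mean throughout.

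Among the complex I genes, mt-Nd3, a small membrane subunit near the quinone site, showed the largest difference. mt-Nd3 had 147, 164, 212 and 179 CPM in the RalAB cKO mice, 200.5, 326, 265 and 384 CPM in the RalA cKO mice, and 129, 163, 107 and 119 CPM in the control mice. All 4 RalA cKO libraries lay above all 4 control libraries, and RalAB cKO overlapped both. The difference was 1.18 ± 0.18 at an adjusted p of 0.00475 for RalA cKO against control, 2.27-fold, and 0.44 ± 0.18 at an adjusted p of 0.108 for RalAB cKO against control.

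mt-Nd1, the subunit that closes the quinone channel, had 1183, 1025, 1058 and 1133 CPM in the RalAB cKO mice, 1186, 1572, 1603 and 1574 CPM in the RalA cKO mice, and 861, 1228, 800.1 and 913 CPM in the control mice. The groups RalA cKO and control overlapped through RalA cKO 1 and control 2, and the difference was 0.64 ± 0.14 at an adjusted p of 0.0224 by edgeR. mt-Nd2, a proton-pumping subunit, had 623, 544, 567 and 574 CPM in the RalAB cKO mice, 524, 798, 844 and 879 CPM in the RalA cKO mice, and 423, 578, 449 and 482 CPM in the control mice. RalA cKO 1 lay inside the control range here as well, with a difference of 0.66 ± 0.15 at an adjusted p of 0.0267. mt-Nd4, another proton pump, had 1262, 917, 1054 and 1115 CPM in the RalAB cKO mice, 1003, 1488, 1649 and 1329 CPM in the RalA cKO mice, and 766, 1030.4, 843 and 889.8 CPM in the control mice, with a difference of 0.63 ± 0.15 at an adjusted p of 0.0326 and the same overlap of RalA cKO 1 with control 2.

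The other 3 complex I genes did not pass. mt-Nd4l, which sits just upstream of mt-Nd4 and overlaps it by 7 bases, differed by 0.38 ± 0.12 at an adjusted p of 0.0906 in RalA cKO against control, and mt-Nd5, the largest pump subunit, by 0.30 ± 0.16 at an adjusted p of 0.292. mt-Nd6 is the only protein gene on the opposite strand. It stood at 2.15, 1.14, 1.44 and 1.22 CPM in the RalAB cKO mice, 1.16, 3.27, 3.4 and 2.42 CPM in the RalA cKO mice, and 1.7, 1.03, 1.81 and 1.36 CPM in the control mice, far below its neighbours, and its difference of 0.78 ± 0.37 at an adjusted p of 0.218 had the widest error of the 13.

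Complex IV receives its catalytic core from mt-Co1, mt-Co2 and mt-Co3, and only mt-Co3 passed. mt-Co3 had 2952, 2903, 3263 and 3416 CPM in the RalAB cKO mice, 4275, 5475, 5116 and 5758 CPM in the RalA cKO mice, and 2548, 3649.6, 2090.5 and 2511 CPM in the control mice. Every RalA cKO library exceeded every control and every RalAB cKO library. The difference was 0.93 ± 0.15 at an adjusted p of 0.00536 for RalA cKO against control, 1.91-fold, and 0.21 ± 0.15 at an adjusted p of 0.364 for RalAB cKO against control.

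mt-Co1, which holds the site of oxygen reduction, had 6025, 5049, 6157 and 5907 CPM in the RalAB cKO mice, 6514, 7117, 7559 and 6569.6 CPM in the RalA cKO mice, and 4514, 6085, 5102 and 5922 CPM in the control mice. The RalA cKO libraries again lay above all control libraries, by a smaller margin of 0.36 ± 0.12 at an adjusted p of 0.103 that did not pass the test. mt-Co2, which takes electrons from cytochrome c, differed by 0.45 ± 0.13 at an adjusted p of 0.0617 and its groups overlapped. Together with mt-Nd3 and mt-Co3, mt-Co1 made 3 of 13 members whose RalA cKO libraries all lay above the control libraries, which held for 5.64% of all genes.

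Complex V takes mt-Atp6, the proton channel subunit, and mt-Atp8, a small stabilising subunit, from the mitochondrial genome, and both rose in RalA cKO. mt-Atp6 had 2499.8, 2369, 2444 and 2455 CPM in the RalAB cKO mice, 2415, 3950.2, 3311 and 3843 CPM in the RalA cKO mice, and 1937, 2829, 1615 and 1906 CPM in the control mice, a difference of 0.71 ± 0.17 at an adjusted p of 0.0364 between RalA cKO and control. mt-Atp8 had 132, 112, 111 and 112 CPM in the RalAB cKO mice, 102, 251, 209 and 248 CPM in the RalA cKO mice, and 84.3, 133, 66.3 and 81 CPM in the control mice, a difference of 1.15 ± 0.26 at an adjusted p of 0.0336. In both genes RalA cKO 1 stood inside the control range while the other 3 RalA cKO libraries lay above it. mt-Cytb, the electron-carrying core of complex III, had 1658, 1261, 1511 and 1609 CPM in the RalAB cKO mice, 1661, 1761, 1977 and 1524 CPM in the RalA cKO mice, and 1233, 1638, 1388 and 1502 CPM in the control mice, with overlapping groups and a difference of 0.26 ± 0.12 at an adjusted p of 0.214.

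The calls for mt-Nd3 and mt-Co3 in RalA cKO against control were kept in all 23 alternative settings, with adjusted p-values up to 0.0255 for mt-Nd3 and 0.032 for mt-Co3. The other 5 calls ended when RalA cKO 2, RalA cKO 4, control 3 or control 4 was left out, each of which left 2 of the 13 genes called. Over all genes, calls in these fits numbered 176, 85, 154 and 248 in that order, beside 374 with every library in. Without RalA cKO 3, 3 were called, beside 332 of 13649 genes. With library totals alone, mt-Atp8, mt-Co3 and mt-Nd3 were called, beside 3.17% of all genes. With summed Y-linked expression as a covariate 2 were called, beside 93 of 13456 genes, while the median of the 13 genes was 0.64 as before. The highest adjusted p-values among the alternatives were 0.0963 for mt-Nd1, 0.111 for mt-Nd2, 0.107 for mt-Nd4, 0.116 for mt-Atp8 and 0.132 for mt-Atp6.

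In RalAB cKO, 0 of the 13 mitochondrial genes passed the edgeR test against control, where 9.39% of all genes were called higher and 9.02% lower. At an unadjusted p of 0.05 the count was 1, mt-Nd3, where 32.1% of all genes reached that level. DESeq2 called 0, beside 22% of all genes, and limma-voom 1, beside 30.2%. In 0 of 13 did all RalAB cKO libraries lie above all control libraries, which held for 9.88% of all genes. All 13 log2 fold changes were above 0, with a median of 0.21, beside -0.01 over all genes, and with library totals alone or in limma-voom 11 of 13 were. mt-Nd4 differed by 0.30 ± 0.15 at an adjusted p of 0.175, mt-Nd2 by 0.26 ± 0.15 at an adjusted p of 0.24 and mt-Atp8 by 0.36 ± 0.26 at an adjusted p of 0.372.

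Between the mutants, mt-Co3 and mt-Nd3 were lower in RalAB cKO than in RalA cKO, 2 of 13, and 0 were higher, where 4.5% of all genes were called lower and 7.03% higher. mt-Co3 differed by -0.72 ± 0.15 at an adjusted p of 0.00492 and its groups did not overlap. mt-Nd3 differed by -0.74 ± 0.18 at an adjusted p of 0.0136, and its groups overlapped because 1 RalAB cKO library exceeded RalA cKO 1. Without RalA cKO 4 the mt-Nd3 difference was -0.59 with an adjusted p of 0.0501. Complete separation, with all RalAB cKO libraries below all RalA cKO libraries, was seen in 4 of 13 members, mt-Nd1, mt-Co1, mt-Co2 and mt-Co3, and in 7.63% of all genes. mt-Nd1 (-0.43 ± 0.14 at an adjusted p of 0.0538), mt-Co2 (-0.34 ± 0.13 at an adjusted p of 0.0949), mt-Co1 (-0.26 ± 0.12 at an adjusted p of 0.207), mt-Atp8 (-0.80 ± 0.26 at an adjusted p of 0.0667), mt-Atp6 (-0.47 ± 0.17 at an adjusted p of 0.0926) and mt-Nd2 (-0.40 ± 0.15 at an adjusted p of 0.0949) did not pass. All 13 values were below 0, with a median of -0.40 against -0.03 over all genes.

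The nuclear members showed no call in RalA cKO against control, 0 of 28, where 2.78% of all genes were called in either direction. At an unadjusted p of 0.05 there were 6, and 22.8% of all genes. DESeq2 called 1, Cox4i1, beside 8.05% of all genes, and limma-voom 3, Cox4i1, Sdhb and Uqcrc1, beside 12.9%. Of the 28 log2 fold changes 24 were above 0, with a median of 0.17 and a range of -0.22 to 0.44. With library totals alone 0 were called, 17 were above 0, and the median was 0.05 while that of all genes was -0.14.

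**Figure D2:**
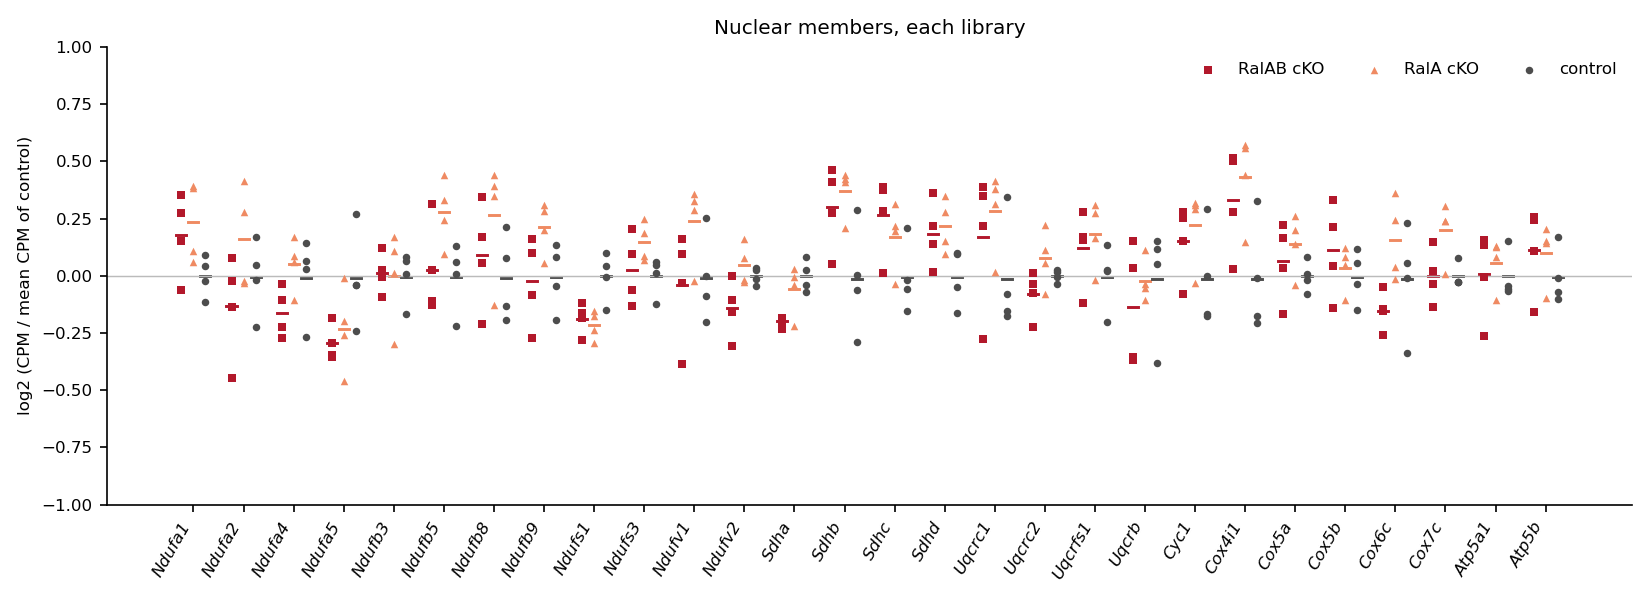
Each point is 1 library, plotted for the 28 nuclear members as log2 of its CPM over the mean CPM of control, and bars are group means. All points lie within 1 log2 unit of the control mean, and Sdhb and Cox4i1 have the highest RalA cKO means.

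In complex I, whose 11 nuclear members had a median of 0.17 in RalA cKO against control, Ndufs1 had the smallest adjusted p and lay below 0. Ndufs1, the iron-sulphur subunit on the electron path through the matrix arm, had 89, 82.1, 92 and 87.7 CPM in the RalAB cKO mice, 88.2, 89.8, 81.4 and 84.5 CPM in the RalA cKO mice, and 89.9, 107, 99.4 and 103 CPM in the control mice. RalA cKO libraries all lay below the control libraries, by -0.21 ± 0.09 at an adjusted p of 0.167, and RalAB cKO differed from control by -0.19 ± 0.09 at an adjusted p of 0.161. Ndufa5, an accessory subunit, differed from control by -0.29 ± 0.14 at an adjusted p of 0.159 in RalAB cKO and -0.22 ± 0.14 at an adjusted p of 0.347 in RalA cKO. Ndufa2, also accessory, differed by -0.29 ± 0.13 at an adjusted p of 0.206 in RalAB cKO against RalA cKO. The other 8 members, Ndufa1, Ndufb3, Ndufb5, Ndufb8, Ndufb9, Ndufs3, Ndufv1 and Ndufv2, lay between 0.01 (Ndufb3) and 0.28 (Ndufb5) in RalA cKO against control and between -0.14 (Ndufv2) and 0.19 (Ndufa1) in RalAB cKO against control. Ndufs3 also separated, with all RalA cKO libraries above control by 0.15 ± 0.10 at an adjusted p of 0.368. Separation in either direction, 1 member higher and 1 lower of 28, stood beside 5.64% higher and 5.77% lower over all genes.

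Complex II, succinate dehydrogenase, is the one complex with no mitochondrially encoded subunit. Sdhb, its iron-sulphur subunit, had 190.5, 222, 253 and 244 CPM in the RalAB cKO mice, 244, 246, 212 and 249 CPM in the RalA cKO mice, and 224, 176, 150.2 and 184 CPM in the control mice. The difference from control was 0.37 ± 0.12 at an adjusted p of 0.098 in RalA cKO and 0.31 ± 0.12 at an adjusted p of 0.0962 in RalAB cKO, with control 1 inside both mutant ranges. Sdha, the flavoprotein that binds succinate, had 153, 153, 148 and 152 CPM in the RalAB cKO mice, 177, 169, 149 and 173 CPM in the RalA cKO mice, and 169, 177, 165 and 184 CPM in the control mice. The RalAB cKO libraries all lay below the control libraries, by -0.20 ± 0.09 at an adjusted p of 0.123, while RalA cKO differed by -0.06 ± 0.09 at an adjusted p of 0.728. Of the membrane anchors, Sdhc differed from control by 0.27 ± 0.11 at an adjusted p of 0.109 in RalAB cKO and 0.18 ± 0.11 at an adjusted p of 0.361 in RalA cKO, and Sdhd by 0.19 ± 0.10 at an adjusted p of 0.222 in RalAB cKO and 0.22 ± 0.10 at an adjusted p of 0.211 in RalA cKO.

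In complex III, Uqcrc1, a core subunit, differed from control by 0.29 ± 0.15 at an adjusted p of 0.266 in RalA cKO and 0.19 ± 0.15 at an adjusted p of 0.418 in RalAB cKO. Cyc1, cytochrome c1, differed from control by 0.23 ± 0.12 at an adjusted p of 0.281 in RalA cKO and 0.16 ± 0.12 at an adjusted p of 0.418 in RalAB cKO. Uqcrc2, the other core subunit, differed by -0.16 ± 0.09 at an adjusted p of 0.33 between RalAB cKO and RalA cKO. Uqcrfs1, the Rieske iron-sulphur protein, differed from control by 0.19 in RalA cKO and 0.13 in RalAB cKO. Uqcrb differed by -0.02 in RalA cKO and -0.12 in RalAB cKO.

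In complex IV, Cox4i1, a regulatory subunit that binds ATP, had 476, 566, 667 and 662 CPM in the RalAB cKO mice, 634, 693, 518 and 688 CPM in the RalA cKO mice, and 586, 405, 413 and 464 CPM in the control mice. It had the largest nuclear difference in both mutants, 0.44 ± 0.14 at an adjusted p of 0.0941 in RalA cKO and 0.35 ± 0.14 at an adjusted p of 0.107 in RalAB cKO against control, and control 1 was inside both mutant ranges. Without control 1, Cox4i1 and Sdhb were called in both mutants and Sdhc in RalAB cKO, 2 and 3 of the 28 members. The same fit called 947 of 13669 genes in RalA cKO and 2768 in RalAB cKO against control. Cox6c, a small accessory subunit, had 96.1, 103, 104 and 111 CPM in the RalAB cKO mice, 148, 136, 114 and 118 CPM in the RalA cKO mice, and 91, 114, 119.6 and 135 CPM in the control mice. RalAB cKO libraries all lay below RalA cKO libraries, by -0.31 ± 0.12 at an adjusted p of 0.118. Cox5a, Cox5b, Cox7c and Ndufa4 lay between 0.04 (Cox5b) and 0.20 (Cox7c) in RalA cKO against control and between -0.16 (Ndufa4) and 0.12 (Cox5b) in RalAB cKO against control. The catalytic ATP synthase subunit Atp5b differed from control by 0.10 ± 0.12 at an adjusted p of 0.615 in RalA cKO and 0.12 ± 0.12 at an adjusted p of 0.516 in RalAB cKO, and its partner Atp5a1 by 0.06 ± 0.11 at an adjusted p of 0.771 in RalA cKO and 0.02 ± 0.11 at an adjusted p of 0.949 in RalAB cKO.

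In RalAB cKO against control 0 of 28 nuclear members passed the edgeR test, where 18.4% of all genes were called. There were 4 at an unadjusted p of 0.05, Sdhb, Sdhc, Sdha and Cox4i1, beside 32.1% of all genes, and DESeq2 called 0, beside 22%. limma-voom called 7, which were these 4 with Ndufa5, Ndufs1 and Uqcrc1, and 30.2% of all genes. With library totals alone 2 were called, Sdha and Ndufv2, and 18% of all genes. The 28 values had a median of 0.02, with 17 above 0, and 11 above 0 with library totals alone, where the median was -0.07. Without RalAB cKO 1, 3 were called, Cox4i1, Sdhb and Sdhc, beside 3209 of 13618 genes. Only Sdha had all RalAB cKO libraries below control, 1 of 28, and 9.34% of all genes did.

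Between RalAB cKO and RalA cKO 0 of 28 passed, where 11.5% of all genes were called. The unadjusted p was under 0.05 for 2, Cox6c and Ndufa2, beside 22.9% of all genes. DESeq2 called 0 and limma-voom 1, Cox6c, beside 14% and 19% of all genes. The median was -0.10, and 23 of the 28 values were below 0. The microglial marker sums given above were higher in every RalAB cKO library than in all others, and those of RalA cKO and control overlapped. Markers of oligodendrocytes, their precursors, astrocytes and neurons were also called in RalAB cKO against control. In RalA cKO against control, all listed microglial, neuronal and endothelial markers had values below 0. Control 3, 1 of the libraries on which calls depended, was highest in neuronal markers. The part of these in the member values was not tested.

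**Figure D3:**
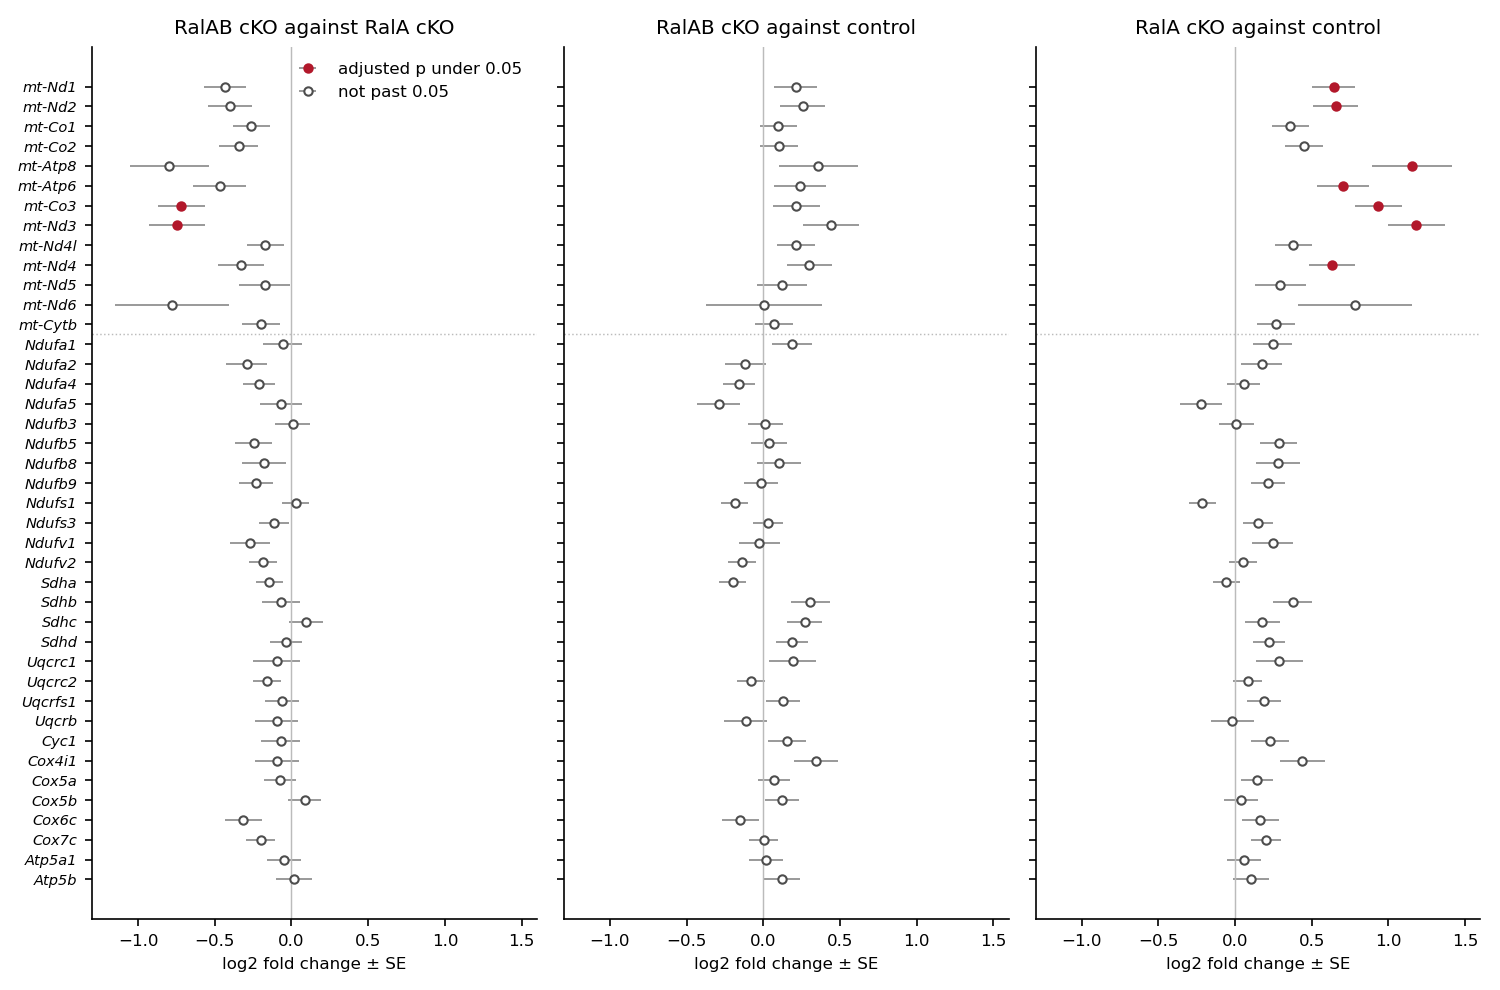
Log2 fold change with its standard error for each of the 41 members in the 3 comparisons, with mitochondrially encoded members above the dotted line and nuclear ones below. Filled points passed an adjusted p of 0.05 in edgeR. They number 2 in RalAB cKO against RalA cKO, 0 in RalAB cKO against control and 7 in RalA cKO against control, and all are mitochondrially encoded.

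As summed shares of library counts, the 13 mitochondrial members made up 2.09, 1.6, 1.77 and 1.81% in the RalAB cKO mice, 2.04, 2.46, 2.63 and 2.29% in the RalA cKO mice, and 1.45, 2.14, 1.63 and 1.68% in the control mice. The means were 1.82% ± 0.20 in RalAB cKO, 2.36% ± 0.251 in RalA cKO, and 1.73% ± 0.294 in control (SD, n = 4 each). RalA cKO 1, the lowest of its group, lay under control 2, the highest of its group, and the other 3 RalA cKO libraries exceeded all others in the series. As sums of CPM after TMM scaling, the 13 members held 16638 to 19308 CPM in RalAB cKO, 20477 to 26046 CPM in RalA cKO, and 14517 to 20169 CPM in control, and RalA cKO overlapped neither of the others. The 28 nuclear members together made up 0.511, 0.533, 0.573 and 0.583% in the RalAB cKO mice, 0.611, 0.581, 0.521 and 0.567% in the RalA cKO mice, and 0.581, 0.535, 0.552 and 0.538% in the control mice, and the 3 groups overlapped. Since a sum over members was described and not tested, these shares carry no p-value.

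The ratio of the mitochondrial to the nuclear sum was 4.09, 3.01, 3.09 and 3.1 in the RalAB cKO mice, 3.34, 4.23, 5.05 and 4.05 in the RalA cKO mice, and 2.5, 4.0, 2.95 and 3.13 in the control mice. The high values of single libraries came from both sides. RalAB cKO 1 was the highest of its group for 10 of 13 mitochondrial members and the lowest for 23 of 28 nuclear ones. RalA cKO 3 was the highest of its group for 7 mitochondrial members and the lowest for 25 nuclear ones. RalA cKO 1 was the lowest for 11 mitochondrial and the highest for 11 nuclear members. Control 2 was the highest for 12 of the mitochondrial members and for 4 of the nuclear ones.

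By complex, the mitochondrial part of complex IV took the largest share, 1.18, 0.925, 1.05 and 1.06% in the RalAB cKO mice, 1.27, 1.42, 1.53 and 1.34% in the RalA cKO mice, and 0.849, 1.25, 0.971 and 1.02% in the control mice. Every RalA cKO library lay above every control and RalAB cKO library. The mitochondrial part of complex I held 0.318% to 0.444% in RalAB cKO, 0.352% to 0.547% in RalA cKO, and 0.276% to 0.40% in control. That of complex V held 0.239% to 0.285% in RalAB cKO, 0.251% to 0.397% in RalA cKO, and 0.188% to 0.314% in control, and that of complex III, mt-Cytb alone, 0.122% to 0.179% in RalAB cKO, 0.139% to 0.20% in RalA cKO, and 0.123% to 0.174% in control. In these 3 complexes the RalA cKO and control ranges overlapped.

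The nuclear part of complex I held 0.0796, 0.0783, 0.0871 and 0.0866% in the RalAB cKO mice, 0.102, 0.0947, 0.0851 and 0.0883% in the RalA cKO mice, and 0.0898, 0.090, 0.091 and 0.0911% in the control mice. By these shares all 4 RalAB cKO libraries lay below all 4 control libraries, but not as sums of CPM after TMM scaling, the scale of the tests, which were 736, 812, 931 and 911 CPM in the RalAB cKO mice and 899, 848, 816 and 905 CPM in the control mice. The 11 members had a median log2 fold change of -0.01 in RalAB cKO against control, with 5 above 0. Complex II held 0.0601% to 0.0634% in RalAB cKO, 0.0587% to 0.0656% in RalA cKO, and 0.0565% to 0.063% in control. The nuclear parts of complexes III, IV and V also overlapped between groups, with 0.116% to 0.135% in RalAB cKO, 0.118% to 0.14% in RalA cKO, and 0.115% to 0.123% in control for complex IV and 0.183% to 0.214% in RalAB cKO, 0.183% to 0.214% in RalA cKO, and 0.192% to 0.217% in control for complex V.

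**Figure D4:**
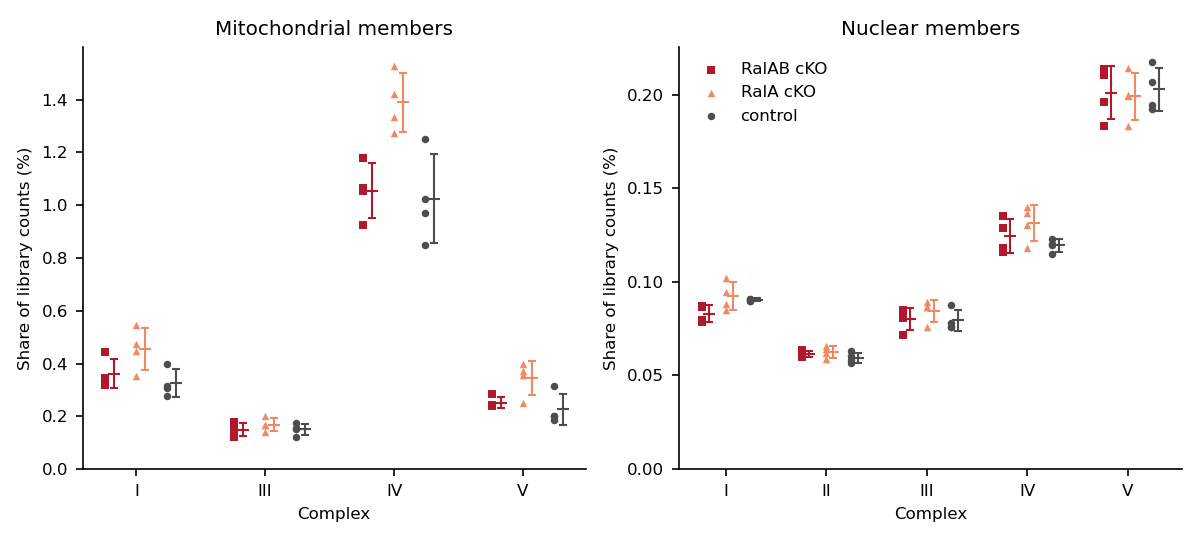
Share of library counts in percent, summed over the members of each complex, for mitochondrially encoded members on the left and nuclear members on the right, with 1 point per library and the mean ± SD of each group beside it. The RalA cKO points of mitochondrial complex IV lie between 1.27% and 1.53%, above all others, and the nuclear sums of complexes II to V overlap between the groups.

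Levels between genes were compared per length, as deposited TPM, a level corrected for effective length. In control, mt-Co3 was the most abundant member with 6641 ± 1757 TPM (SD, n = 4), followed by mt-Atp6 with 6452 ± 1750.2, mt-Co1 with 6157 ± 979 and mt-Co2 with 5443 ± 1029 TPM. Neighbours in this order lay within 1 SD of each other. mt-Atp8 followed with 2760.2 ± 910.1, mt-Cytb with 2151 ± 326, mt-Nd1 with 1970.4 ± 423 and mt-Nd4l with 1729 ± 160.2 TPM, each overlapping the next within 1 SD. mt-Nd4 with 1104 ± 177, mt-Nd3 with 1065 ± 201 and mt-Nd2 with 896 ± 154 TPM came next. The lowest heavy-strand complex I gene was mt-Nd5 with 475 ± 81.5 TPM, and mt-Nd6 had 6.37 ± 1.7 TPM. Of the nuclear members, Atp5b with 1570.1 ± 90.8, Cox4i1 with 1429.6 ± 172 and Cox5b with 1206 ± 124 TPM were the most abundant, and Ndufs1 with 70.3 ± 7.9 TPM was the least. The most abundant nuclear subunits thus stood within the range of the mitochondrial complex I genes in the same control cells, and under the mitochondrial complex IV genes.

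The mitochondrial members varied more among mice of one genotype than the nuclear ones in 2 of the 3 groups. The median coefficient of variation of CPM was 9.0% over 13 mitochondrial members in RalAB cKO, 20.2% in RalA cKO and 16.6% in control. Over 28 nuclear members it was 11.6% in RalAB cKO, 8.84% in RalA cKO and 9.70% in control.

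Because the 13 mitochondrial genes did not all move by the same amount, counts were also set against mt-Co1 in the same library, a choice made after the values were seen. The ratio of mt-Co3 to mt-Co1 was 0.49, 0.575, 0.53 and 0.578 in the RalAB cKO mice, 0.656, 0.769, 0.677 and 0.876 in the RalA cKO mice, and 0.565, 0.60, 0.41 and 0.424 in the control mice. All 4 RalA cKO libraries lay above all others. The ratio of mt-Nd3 to mt-Co1 was 0.0244, 0.0324, 0.0344 and 0.0304 in the RalAB cKO mice, 0.0308, 0.0457, 0.035 and 0.0585 in the RalA cKO mice, and 0.0285, 0.0268, 0.021 and 0.0201 in the control mice, with RalA cKO above control in every library and RalAB cKO between and overlapping both. For mt-Cytb the ratio stayed at 0.245 to 0.275 in RalAB cKO, 0.232 to 0.262 in RalA cKO, and 0.254 to 0.273 in control, and for mt-Co2 at 0.296 to 0.326 in RalAB cKO, 0.303 to 0.356 in RalA cKO, and 0.294 to 0.339 in control. For mt-Atp8 it was 0.018 to 0.0221 in RalAB cKO, 0.0157 to 0.0377 in RalA cKO, and 0.013 to 0.0218 in control, and the groups overlapped.

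Among nuclear genes of one complex, the ratio of Sdhb to Sdha counts was 1.24, 1.45, 1.7 and 1.6 in the RalAB cKO mice, 1.38, 1.46, 1.42 and 1.44 in the RalA cKO mice, and 1.33, 0.992, 0.908 and 1.0 in the control mice. All RalA cKO libraries lay above all control libraries, and control 1 lay within the RalAB cKO range. The ratio of Cox4i1 to Cox5b was 2.26 to 2.48 in RalAB cKO, 2.4 to 2.8 in RalA cKO, and 1.79 to 2.43 in control. These ratios, also chosen with the values known, were not tested.

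**Figure D5:**
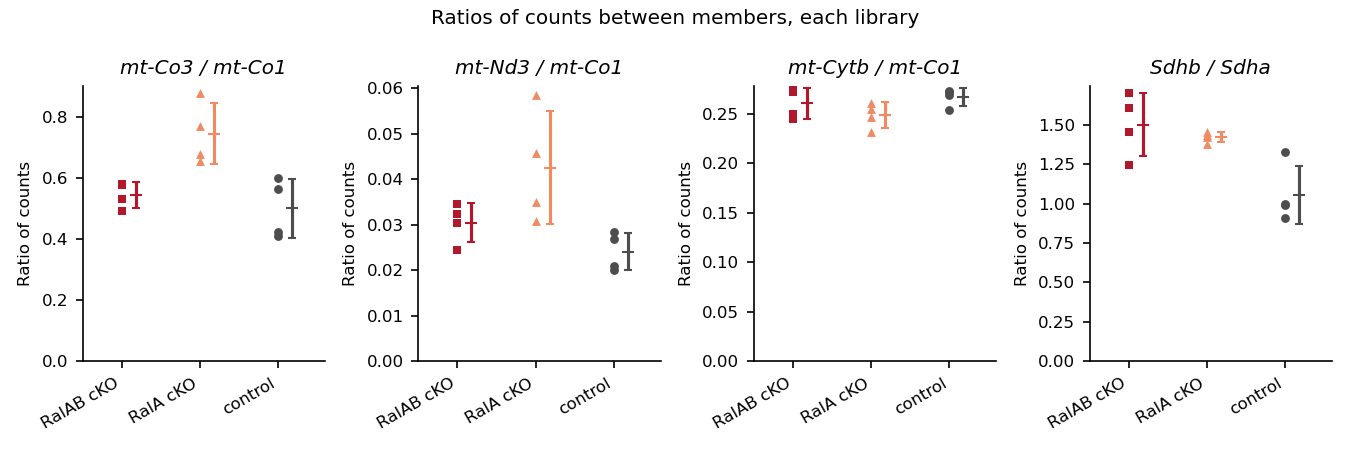
Ratios of counts of a pair of members within each library, with 1 point per library and the mean ± SD of each group. The RalA cKO points lie above all others for mt-Co3 over mt-Co1 and above control for mt-Nd3 over mt-Co1, the groups overlap for mt-Cytb over mt-Co1, and for Sdhb over Sdha the RalA cKO points lie above all control points while control 1 lies within the RalAB cKO range.

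The rest of the pathway was read from the same test. Of 53 further subunits, isoforms and associated factors of the complexes tested, 1 rose in RalA cKO against control, where 1.71% of all genes did. This was Cox7a2l, a factor in the assembly of supercomplexes, with 0.41 ± 0.09 at an adjusted p of 0.0267 by edgeR. Of the 53 values 49 were above 0 with a median of 0.27, and 29 reached an unadjusted p of 0.05, as 22.8% of all genes did. Uqcr11, with the highest mean CPM of 4 other complex III subunits, differed by 0.40 ± 0.14 at an adjusted p of 0.104 in RalA cKO and 0.37 ± 0.14 at an adjusted p of 0.0656 in RalAB cKO. The call for Cox7a2l ended with mouse number as a block and with the Y-linked covariate. It also ended without RalA cKO 2, RalA cKO 4, control 2 or control 3, with adjusted p-values up to 0.113 over the alternatives.

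In RalAB cKO against control, 1 of the 53 rose and 1 fell, where 9.39% of all genes rose and 9.02% fell. Atpif1, the inhibitor protein of the ATP synthase, had 41.2, 34.8, 45 and 48.2 CPM in the RalAB cKO mice, 61.8, 53.2, 50.7 and 48.9 CPM in the RalA cKO mice, and 58.2, 68.4, 61.9 and 62.7 CPM in the control mice. All RalAB cKO libraries lay below all control libraries, by -0.57 ± 0.11 at an adjusted p of 0.00286, a call kept in all 23 alternatives. Atp5d, the delta subunit, differed by 0.50 ± 0.15 at an adjusted p of 0.035. The Atp5d call ended with mouse number as a block and with only the 2 groups compared. It also ended without RalAB cKO 2, 3 or 4 or control 2, 3 or 4, with adjusted p-values up to 0.123. Between RalAB cKO and RalA cKO, 2 of the 53 fell, where 4.5% of all genes did, Ndufc2 of complex I with -0.43 ± 0.11 at an adjusted p of 0.0187 and Atp5k, a membrane subunit of the ATP synthase, with -0.31 ± 0.10 at an adjusted p of 0.0468. The Ndufc2 call held in 20 and the Atp5k call in 12 of the 23 alternatives.

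Of 43 assembly factors 1 was called, beside 2.78% of all genes in RalA cKO against control. Surf1, which helps to build complex IV, was higher in RalA cKO by 0.42 ± 0.10 at an adjusted p of 0.0392, a call lost in 13 of the 23 alternatives. Of 35 genes that transcribe, copy or process mitochondrial nucleic acids, 0 were called in RalA cKO against control, beside 2.78% of all genes, with 5 at an unadjusted p of 0.05, beside 22.8%, and a median of 0.00. Twnk, the mitochondrial DNA helicase, rose in RalAB cKO against control by 0.46 ± 0.13 at an adjusted p of 0.0253, 1 of 35 where 9.39% of all genes rose. The call for Twnk was lost in 7 of the 23 alternatives, among them those without RalAB cKO 2, 3 or 4 or control 3 or 4, with adjusted p-values up to 0.112. Between RalAB cKO and RalA cKO, Hsd17b10, a subunit of mitochondrial RNase P, differed by -0.48 ± 0.13 at an adjusted p of 0.029 and Mterf4, which acts in mitochondrial ribosome assembly, by -0.49 ± 0.15 at an adjusted p of 0.0357, 2 of 35 where 4.5% of all genes fell. The Hsd17b10 call was lost in 7 of the alternatives, among them those without RalAB cKO 1, 2 or 3 or RalA cKO 1 or 2, with adjusted p-values up to 0.103. The Mterf4 call was lost in 10, among them those without RalAB cKO 1, 3 or 4 or RalA cKO 1, 2 or 3, with adjusted p-values up to 0.111.

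Of 12 regulators of mitochondrial biogenesis 9 were tested. Gabpb1, a subunit of the nuclear factor GABP that acts at promoters of respiratory genes, had 14, 12.7, 14.1 and 14.6 CPM in the RalAB cKO mice, 9.65, 10.9, 10.2 and 8.97 CPM in the RalA cKO mice, and 14.9, 18.6, 15.6 and 13.9 CPM in the control mice. RalA cKO lay below both other groups in every library, by -0.67 ± 0.14 at an adjusted p of 0.0186 against control, and RalAB cKO exceeded RalA cKO by 0.48 ± 0.14 at an adjusted p of 0.0315. The call against control ended with transcript length offsets, with the Y-linked covariate, and without RalA cKO 4 or control 2, with adjusted p-values up to 0.0843. The call between the mutants was lost in 9 of the 23 alternatives, among them those without RalAB cKO 1, 3 or 4 or RalA cKO 1, 3 or 4, with adjusted p-values up to 0.122. Ppard, a nuclear receptor of fatty acid oxidation genes, was higher in RalAB cKO than in RalA cKO by 0.37 ± 0.10 at an adjusted p of 0.0278. Its call was lost in 10 of the alternatives, among them those without RalAB cKO 2, 3 or 4 or any 1 RalA cKO library, with adjusted p-values up to 0.103. Of the 9 regulators, 1 was lower in RalA cKO than in control and 2 were higher in RalAB cKO than in RalA cKO, beside 1.07% and 7.03% of all genes.

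Of 19 genes of mitochondrial mass and protein import 0 were called in any of the 3 comparisons by edgeR. At an unadjusted p of 0.05 there was 1 for the mutants against each other, beside 22.9% of all genes, 1 for RalAB cKO against control, beside 32.1%, and 4 when RalA cKO was set against control, beside 22.8%. Slc25a4, the ADP/ATP carrier and the gene with the highest mean CPM of them, differed by 0.09 ± 0.10 at an adjusted p of 0.613 in RalA cKO and -0.09 ± 0.10 at an adjusted p of 0.558 in RalAB cKO against control. A list of 14 electron carrier genes held those of ubiquinone synthesis and cytochrome c, with Etfa, Etfb and Etfdh. The 14 values in RalAB cKO against control had a median of -0.11, with 9 below 0. Of the 14, 3 rose, where 9.39% of all genes rose. The 3 are genes of the ubiquinone pathway, Coq9 with 0.42 ± 0.11 at an adjusted p of 0.0167, Coq8a with 0.55 ± 0.16 at an adjusted p of 0.0245 and Coq4 with 0.43 ± 0.14 at an adjusted p of 0.0447. Coq9 differed by 0.38 ± 0.11 at an adjusted p of 0.0757 and Coq4 by 0.46 ± 0.14 at an adjusted p of 0.0815 in RalA cKO against control. The 3 calls held in 18, 16 and 8 of the 23 alternatives for Coq9, Coq8a and Coq4.

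GABP is a textbook factor of nuclear respiratory genes, so its motif was looked for on both strands from 250 bases before to 50 bases after the start site, in RefSeq promoters of GRCm38.p6, of which 18 of the 28 nuclear members had one. The letters CCGGAAG, in any window of a gene, were present in 3 of 18 (16.7%), Ndufs3, Sdhb and Sdhd, and in 9.93% of 27025 genes. The promoter of Sdhb (chr4:140961021-140961320, plus strand) is shown because Sdhb had the second largest nuclear difference in RalA cKO, with its GABP match in capitals.
Sdhb: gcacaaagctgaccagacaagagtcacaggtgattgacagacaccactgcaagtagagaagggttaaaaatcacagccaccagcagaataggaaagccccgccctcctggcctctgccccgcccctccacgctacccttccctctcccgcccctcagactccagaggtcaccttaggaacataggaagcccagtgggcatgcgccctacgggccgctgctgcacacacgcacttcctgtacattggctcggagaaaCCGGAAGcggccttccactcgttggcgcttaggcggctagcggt
A match of letters is a description of the window and not a site of binding. Ndufs3, Sdhb and Sdhd differed from control by 0.15, 0.37 and 0.22 in RalA cKO and by 0.03, 0.31 and 0.19 in RalAB cKO, and none of them was called. In RalA cKO 24 of all 28 nuclear members were above 0. A part of Gabpb1 in these values was not tested.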

How the data were processed

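Gene expression was measured by RNA sequencing in 12 libraries, 4 mice per group, with a stranded mRNA kit per the labels, which also name Trizol for RNA extraction. Per the file headers, the authors deposited 3 values per transcript, namely estimated counts, TPM and effective lengths (in bases). Trimmomatic 0.36, kallisto 0.44 and GRCm38.p6 are named in the submitters' processing notes, with roles not given in the sources used here. Of 121843 transcripts, 121104 matched GENCODE vM21 by identifier. The other 739 held 0.219% to 0.277% of the counts and were left out.

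Estimated counts were summed over 35675 genes and rounded to whole numbers. The edgeR filter (minimum count 10, minimum total 15) kept 13456 genes. Libraries were scaled by TMM, and all 12 were fitted with 1 mean per group in edgeR 4.0.16 under R 4.3.3, with robust quasi-likelihood tests, Benjamini-Hochberg adjustment over all genes and a threshold of 0.05. The common biological coefficient of variation was 0.199. Standard errors were log2 fold changes divided by the square root of F. Shares of counts are of the library total, and deposited TPM values were used only for levels between genes. The test was checked on simulated data. Alternatives numbered 23 and included DESeq2 1.42.0, limma-voom (limma 3.58.1), other scalings and filters, transcript length offsets, Y-linked expression as a covariate, mouse number as a block and each library left out in turn. Mouse numbers are not known to pair the groups, and deviations of same-numbered mice correlated at -0.198 to 0.175 across genes.

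Members, gene lists, naming rule and alternatives were chosen with earlier results of these data known. Named were all mitochondrially encoded members, any called nuclear member, the nuclear member of each complex with the smallest p in each comparison, up to 3 called genes (or else the one with the highest mean CPM) of each other list, and Rala and Ralb. The other members, the ratios and the promoters were named after their values were seen. The libraries are separate mice per the labels, and the depth of 10.9 to 15.4 M counts limits mt-Nd6 most, at 1.03 to 3.40 CPM. Of the 24 mitochondrial rRNA and tRNA genes in the annotation, 0 were among the matched transcripts. The same held for its 7 pseudogene copies of mitochondrial sequence on chromosome 1, so these copies were not counted apart from the members.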

Additional observations from a re-analysis of the deposited data

Results flagged for a closer look

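Within groups of 4 libraries, 159 groups of values were looked at, and in 10 of them 1 library stood apart from its group by a gap that took up most of the group's range, past the critical value of Dixon's test. Chance alone gives about 1 in 20 such groups. Among mitochondrial members, RalA cKO 1 stood low for mt-Nd1 (1186 CPM) and RalAB cKO 1 stood high for mt-Atp8 (132 CPM). RalAB cKO 1 also stood high in the summed share of mt-Atp6 and mt-Atp8 (0.285%) and in the ratio of mitochondrial to nuclear counts (4.09), and control 2 stood high in the summed share of mt-Atp6 and mt-Atp8 (0.314%). Among nuclear members, RalA cKO 3 stood low for Sdhb (212 CPM) and Cyc1 (152 CPM). Control 1 stood high for Uqcrc1 (353 CPM) and Atp5a1 (819.8 CPM), and control 4 stood high for Cox7c (142 CPM).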

How the results depend on the processing

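No result changed direction past the threshold under the 23 alternatives. Mitochondrial calls in RalA cKO against control, 7 in the fit of the report, were 3 with library totals alone, 2 with Y-linked expression as a covariate and 2 to 8 with single libraries left out; nuclear calls there were 1 with DESeq2, 3 with limma-voom and 0 to 2 with libraries left out. Calls over all genes there, 374 in the report's fit, were 93 with the Y-linked covariate, 1083 with DESeq2, 1736 with limma-voom and 85 (without RalA cKO 4) to 947 (without control 1). In RalAB cKO against control, limma-voom called 1 mitochondrial and 7 nuclear members and 4061 genes, library totals alone 2 nuclear members, and leaving out single libraries 0 to 3 nuclear members and 1605 to 3209 genes. In RalAB cKO against RalA cKO, mitochondrial calls were 4 with only the 2 groups compared, 6 with DESeq2, 9 with limma-voom and 1 to 7 with libraries left out, and limma-voom called 1 nuclear member and 2560 genes. Calls over all genes there, 1551 in the report's fit, were 1614 with only the 2 groups, 1883 with DESeq2 and 1117 to 1678 with libraries left out. The cause of these differences was not tested. With mouse number as a replicate block, 232 genes and 6 mitochondrial members were called in RalA cKO against control, and the numbers are not known to pair the mice. Library totals alone moved the median of all genes to -0.14 in RalA cKO and -0.10 in RalAB cKO against control, and 41.3% of calls in RalA cKO were then higher, beside 61.5%. With TMM-scaled CPM, chosen after seeing the data, the log2 ratio of the nuclear sum was 0.16 for RalA cKO and 0.090 for RalAB cKO against control, beside 0.05 and -0.003 as shares of library totals. Summed shares moved by less than the spread between libraries under the other alternatives run, with the mitochondrial log2 ratio of RalA cKO to control at 0.37 to 0.57 when libraries were left out. Depth limits mt-Nd6 most.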
